A study of Mus musculus with 3 samples.

Results

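Dividing limbal cells were set against the other limbal cells of the same mouse corneal epithelium. Limbal cells were the cells with the authors' label LSC. A cell with at least 2000 unique molecular identifiers (UMIs, each standing for 1 captured transcript) was called dividing if it held 1 or more UMIs of Mki67 or Top2a, and other if it held neither. Of 737 limbal cells, among 38111 cells in all, 727 reached that depth, and 154 of these were dividing and 573 were other. The shallowest cell kept held 2125 UMIs and the deepest cell left out held 1780. In the 3 libraries 25, 92 and 37 cells were dividing, against 137, 254 and 182 other cells. All cells came from C57BL/6J mice in homeostasis, with no transgene or treatment given in the labels. Library 1 came from 2 male mice of 20 weeks (4 corneas pooled), library 2 from 2 female mice of 11 weeks (4 corneas pooled) and library 3 from 7 male mice of 10 weeks (7 corneas pooled). Animals within a library cannot be told apart, and both states of a library share the same animals.

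The limbus is the rim between cornea and conjunctiva, and its basal layer holds the stem cells that renew the corneal epithelium. Limbal stem cells divide seldom, and their progeny, the transit-amplifying cells, divide more often as they move into the cornea. Mki67 codes for a protein that coats chromosomes in mitosis, and Top2a for the topoisomerase that disentangles DNA strands. Their transcripts build up from S phase to mitosis, after those of most genes of DNA replication.

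Both genes chose the cells, so their own values are a description and were left out of every sum and test. Dividing limbal cells held 126, 181 and 73 UMIs of Mki67 and 139, 173 and 105 of Top2a in libraries 1, 2 and 3, and the other cells held 0 by definition. Of the 154 dividing cells, 70 (45.5%) held a single UMI of the pair, 32 held 2 or 3, and 52 held 4 or more. The label LSC was checked by Gpha2, a glycoprotein hormone subunit known from limbal cells. Gpha2 stood at 957, 2149 and 892 CPM (a gene's UMIs scaled to the same total for every summed profile) in dividing and 3395, 3323 and 3225 CPM in other limbal cells, and at 47.4 to 155 CPM in basal corneal cells of either state.

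The sequences upstream of genes that were higher in dividing cells are shown here because they carry the motifs by which cell cycle genes are commonly grouped. TTTGAA is the core of the cell cycle homology region found in many genes of G2 and mitosis, CCAAT is bound by NF-Y, and TTTNNCGC is the E2F site of many genes of G1 and S phase. Each sequence is the 200 bases before the start site in RefSeq on GRCm38.p6, read on the gene's strand, with matches of these motifs on either strand in capitals. Genes of a chromosome set aside, genes without an annotated position and genes whose 200 bases touched the annotated gene were passed over. Of the rest, those shown have the largest fold changes among called genes whose 200 bases hold CCAAT and a second motif. That motif is TTTGAA for the mitotic lists and TTTNNCGC for the replication list. Ckap2 (chr8:22185820-22186019, minus strand) and Kif11 (chr19:37376182-37376381, plus strand) serve the mitotic spindle, Ect2 (chr3:27153879-27154078, minus strand) is the exchange factor that starts cytokinesis, Mcm5 (chr8:75109309-75109508, plus strand) is a subunit of the replicative helicase, and Pola1 (chrX:93632156-93632355, minus strand) is the catalytic subunit of DNA polymerase alpha.
Ckap2: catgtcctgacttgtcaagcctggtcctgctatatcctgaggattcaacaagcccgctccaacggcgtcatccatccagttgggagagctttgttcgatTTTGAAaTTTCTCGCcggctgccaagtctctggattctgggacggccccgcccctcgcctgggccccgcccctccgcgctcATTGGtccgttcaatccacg
Kif11: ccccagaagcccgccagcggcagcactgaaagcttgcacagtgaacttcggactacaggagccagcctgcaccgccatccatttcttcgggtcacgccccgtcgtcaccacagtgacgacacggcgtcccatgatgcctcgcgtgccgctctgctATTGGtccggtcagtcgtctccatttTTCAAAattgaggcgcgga
Ect2: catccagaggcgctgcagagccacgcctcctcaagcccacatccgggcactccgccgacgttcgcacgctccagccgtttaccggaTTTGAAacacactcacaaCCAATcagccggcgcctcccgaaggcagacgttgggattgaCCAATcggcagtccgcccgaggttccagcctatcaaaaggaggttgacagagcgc
Mcm5: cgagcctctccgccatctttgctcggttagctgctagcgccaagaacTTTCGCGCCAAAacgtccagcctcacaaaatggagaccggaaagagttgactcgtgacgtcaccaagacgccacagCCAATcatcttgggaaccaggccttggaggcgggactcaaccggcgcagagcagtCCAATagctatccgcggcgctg
Pola1: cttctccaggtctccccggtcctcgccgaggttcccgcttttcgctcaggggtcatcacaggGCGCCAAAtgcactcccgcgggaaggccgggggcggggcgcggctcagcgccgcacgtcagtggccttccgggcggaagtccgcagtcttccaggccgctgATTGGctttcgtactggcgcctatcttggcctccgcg

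Motifs were counted in the window from 250 bases before to 50 after the start site, with 1 promoter per gene. TTTGAA was in 63.3% of the 49 matched promoters of the 59 genes called higher in 3 mitotic lists, and in 13.6% of the 22 matched promoters of the 25 genes called higher in the replication list. It was in 11.7% of the 6916 matched genes of the 8614 tested and in 18.1% of all 27025 promoters. TTTNNCGC was in 12.2% of the mitotic and 36.4% of the replication promoters, against 9.64% of the tested genes and 5.27% of all promoters. CCAAT was in 71.4% and 68.2% of these sets, against 38.3% and 37.9%. E2F matches can share bases with each other, as in Mcm5, and were counted once per promoter. A match describes these letters only. The fold changes of these genes are given with their lists.

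Depth and cell make-up differed between the states in every library. Dividing cells had a median of 16168, 13675.5 and 9738 UMIs, against 9853, 8687.5 and 6087 in other cells. A deeper cell more often shows a UMI of either marker gene. The rule itself thus favours deeper cells, and the difference in depth is a description. Thinned to 2000 UMIs each, dividing cells still showed more genes, with medians of 930, 925 and 906 against 894, 887 and 883.5. A score that counts simulated doublets (sums of the profiles of random cell pairs) among a cell's nearest neighbours was high in 40%, 33.7% and 62.2% of dividing cells, against 7.30%, 9.06% and 14.3% of other cells. Cells with 3 or more UMIs of the mucosal keratins Krt4, Krt13 and Krt19 after thinning made up 36%, 40.2% and 48.6% of dividing cells, against 14.6%, 20.1% and 26.4% of other cells. The mitochondrial share of UMIs was lower in dividing cells, at 2.15%, 1.99% and 2.24% against 2.56%, 2.28% and 2.94%. Each of these differences had the same sign in 3 of 3 libraries, and the exact two-sided sign-flip test gave 0.25, the smallest p that 3 libraries allow.

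The differences in depth, doublet score and mucosal keratins were largest in the cells richest in the 2 marker genes. Of the 52 cells with 4 or more UMIs of the pair, 38 (73.1%) had a high doublet score, 34 (65.4%) had mucosal keratins and 29 (55.8%) held over 20000 UMIs. Of the 70 cells with a single UMI, 18 (25.7%), 19 (27.1%) and 9 (12.9%) did, and of the 573 other cells 59 (10.3%), 119 (20.8%) and 29 (5.06%). The median depth was 26121.5 UMIs in the first of these sets, 10153 in the second and 8179 in the third. Libraries differed at a single UMI, where 8.33%, 21.4% and 50% of cells had a high doublet score, against 7.30%, 9.06% and 14.3% of other cells. The share with a high doublet score differed between the states by 35.1 ± 11.8 percentage points in limbal cells (SD, n = 3 libraries), by -0.66 ± 1.61 in TAC1 cells, a transit-amplifying class of the authors, by 11.5 ± 3.12 in TAC2 cells, the second such class, and by 3.98 ± 2.51 in basal cells. The share was higher in dividing cells in 3 of 3 libraries for limbal, basal and TAC2 cells. What the high scores mean for single cells was not tested, so results are given with all cells and without such cells, without cells over 20000 UMIs, or without cells with mucosal keratins.

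**Figure D1:**
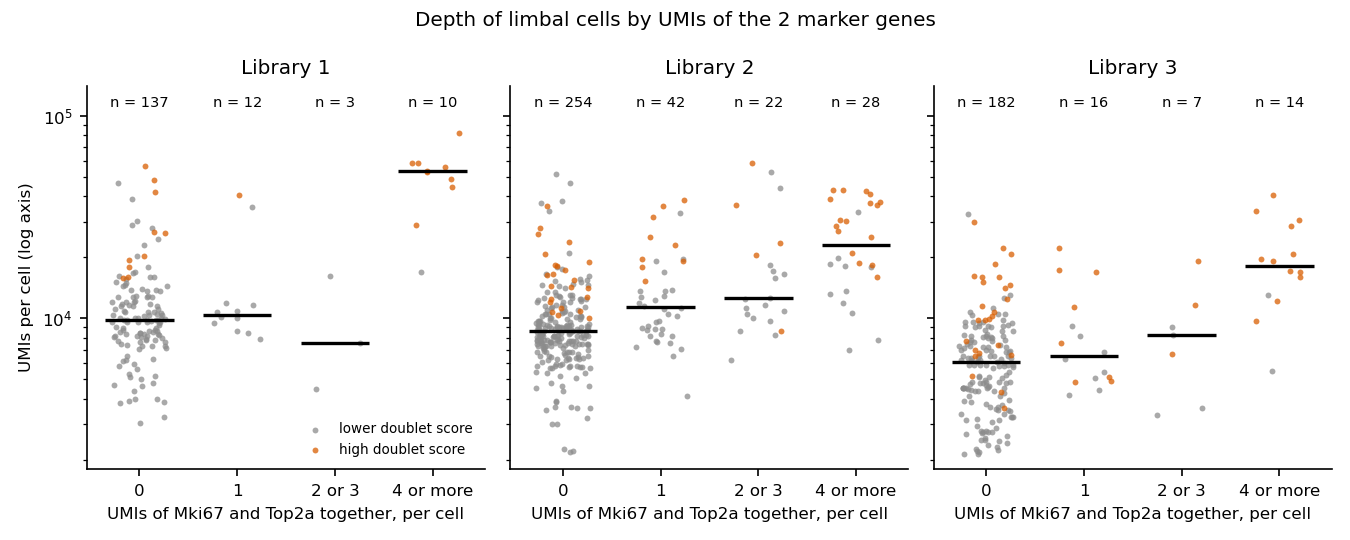
UMIs per limbal cell (log axis) by the UMIs of Mki67 and Top2a the cell held, 1 point per cell, with each cell's doublet score group marked. Cells with 4 or more UMIs of the pair are the deepest, and 38 of these 52 have a high doublet score.

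The share of dividing cells was 15.4% in library 1 (95% exact Clopper-Pearson interval 10.2 to 21.9), 26.6% in library 2 (22 to 31.6) and 16.9% in library 3 (12.2 to 22.5), with a mean of 19.6 ± 6.06% (SD, n = 3). Library 2 was above the other libraries. At 2000 UMIs per cell the shares were 6.17%, 6.94% and 9.13%, with a mean of 7.41 ± 1.54%, and library 3 was then the highest. Median depths were 10088.5, 9158 and 6338 UMIs in limbal cells, against 19395.5, 16298 and 10732 UMIs in wing cells, a suprabasal class of the authors, where 6.26 ± 1.42% of cells showed a UMI of the pair. Thinned, the share was 7.41% in limbal cells, against 0.798% in wing cells. Whether these wing UMIs come from free RNA, doublets or dividing wing cells was not tested. Without high doublet scores the limbal share was 13.2 ± 6.74%, and 4.11 ± 1.12% when also thinned. By the same rule TAC1 cells reached 31.5% and 9.60% thinned, and TAC2 cells 82.2% and 59.7%. Basal cells reached 5.61%, against 6.26% in wing cells, and 1.40% thinned. Where the basal UMIs come from was not tested either.

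Across all genes, 1157 of 8614 (13.4%) passed an adjusted p of 0.05, 752 higher (8.73%) and 405 lower (4.7%) in dividing cells, with a median log2 fold change of -0.01. In a summed profile a higher level per cell and a larger share of expressing cells cannot be told apart. Unless another is named, a test is the edgeR quasi-likelihood F test on 6 summed profiles with the library as a block. It has Benjamini-Hochberg adjustment over all genes tested, and "rose", "fell" and "called" refer to it. Tests without a library used the remaining sums. Differences between classes were fitted on the sums of both classes, with library and class together as the block. Without library 1 the number called was 634 (7.33%; 494 higher, 5.71%, and 140 lower, 1.62%), without library 2 1075 (14.1%; 8.65% higher, 5.44% lower) and without library 3 861 (9.48%; 6.66% higher, 2.82% lower). Without the library block 519 were called (6.03%; 4.9% higher, 1.13% lower), and by DESeq2 441 (5.12%; 4.14% higher, 0.975% lower). Leaving out high doublet scores left 15, 61 and 14 dividing and 127, 231 and 156 other cells, of which the dividing cells of library 3 held 92143 UMIs in all, and 151 of 6863 genes (2.2%) were called, 102 higher (1.49%) and 49 lower (0.714%). Leaving out cells above 20000 UMIs left 14, 65 and 31 dividing and 123, 243 and 178 other cells, and 86 of 7281 genes (1.18%) were called, 84 higher (1.15%) and 2 lower (0.0275%). Without mucosal keratins 228 of 6758 (3.37%) were called, 168 higher (2.49%) and 60 lower (0.888%). With other cells picked to match the depth of the dividing cells, 364 of 5909 (6.16%) were called, 276 higher (4.67%) and 88 lower (1.49%). The match was incomplete, since these other cells held 540835, 1325378 and 416279 UMIs in all, against 703450, 1725224 and 484386. Their median depth was 16216, 12469 and 9795 UMIs, against 16168, 13675.5 and 9738 in dividing cells. With only the 70 dividing cells of a single marker UMI, 47 of 7197 (0.653%) were called, 41 higher (0.57%) and 6 lower (0.0834%). With every cell thinned to 2000 UMIs, 179 of 2752 genes (6.5%) were called, 82 higher (2.98%) and 97 lower (3.52%). Of the genes called with all UMIs, 299 of those higher and 287 of those lower could be tested at that depth, and 74 and 89 of them were called in the same direction. What lowered the counts was not tested.

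Calls with all cells were compared with those without high doublet scores, cells above 20000 UMIs or mucosal keratins, and with other cells matched in depth. In all, 49 of the 8614 genes tested with all cells were called higher throughout, and 34 of them belonged to a cell cycle or other list. They held genes of replication (Clspn, Mcm3, Mcm5, Mcm7, Pcna, Lig1, Rpa2, Gmnn, Chaf1b, Uhrf1), nucleotide synthesis (Tk1, Tyms, Rrm1, Dut, Dctpp1), chromosome structure (Smc2, Smc4, Hmgb1, Hmgn2, H2afz, Hells, Ezh2), the kinetochore (Cenpa, Cenpf, Cenpk, Cenpm, Spc24, Cdca8), the cytoskeleton (Stmn1, Tubb5) and nuclear transport (Ran). Pclaf, which binds the clamp protein Pcna, was also among them, with 157, 108 and 104 CPM in dividing against 3.00, 9.95 and 5.81 CPM in other limbal cells, a log2 fold change of 4.14 ± 0.25 (SE). Its groups did not overlap. The gene called lower throughout was the predicted gene Gm20383 (46.7 ± 4.56 against 90.2 ± 6.59 CPM, SD, n = 3, log2 fold change -0.96). Without high doublet scores some of the genes called higher throughout rested on few UMIs outside library 2. Dividing cells of libraries 1, 2 and 3 then held 2, 48 and 2 UMIs of Cenpa, 4, 59 and 2 of Cdca8, and 2, 71 and 5 of Mcm5. Others held more, with 79, 426 and 67 UMIs of Stmn1 and 28, 159 and 27 of Pcna. In that setting Cdca3, Cdca8, Cenpk, Cenpm, Clspn, Uhrf1 and Chaf1b lay below the filter on low counts in all sums of other cells. Without cells above 20000 UMIs Tk1, Clspn, Cdca3 and Cdca8 did. These genes entered those tests through the dividing cells alone and had to differ there. Without library 2, Mcm3 (1.12), Mcm5 (0.99), Mcm7 (0.71), Rpa2 (0.88), Dctpp1 (0.56) and Hells (0.70) were not called.

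**Figure D2:**
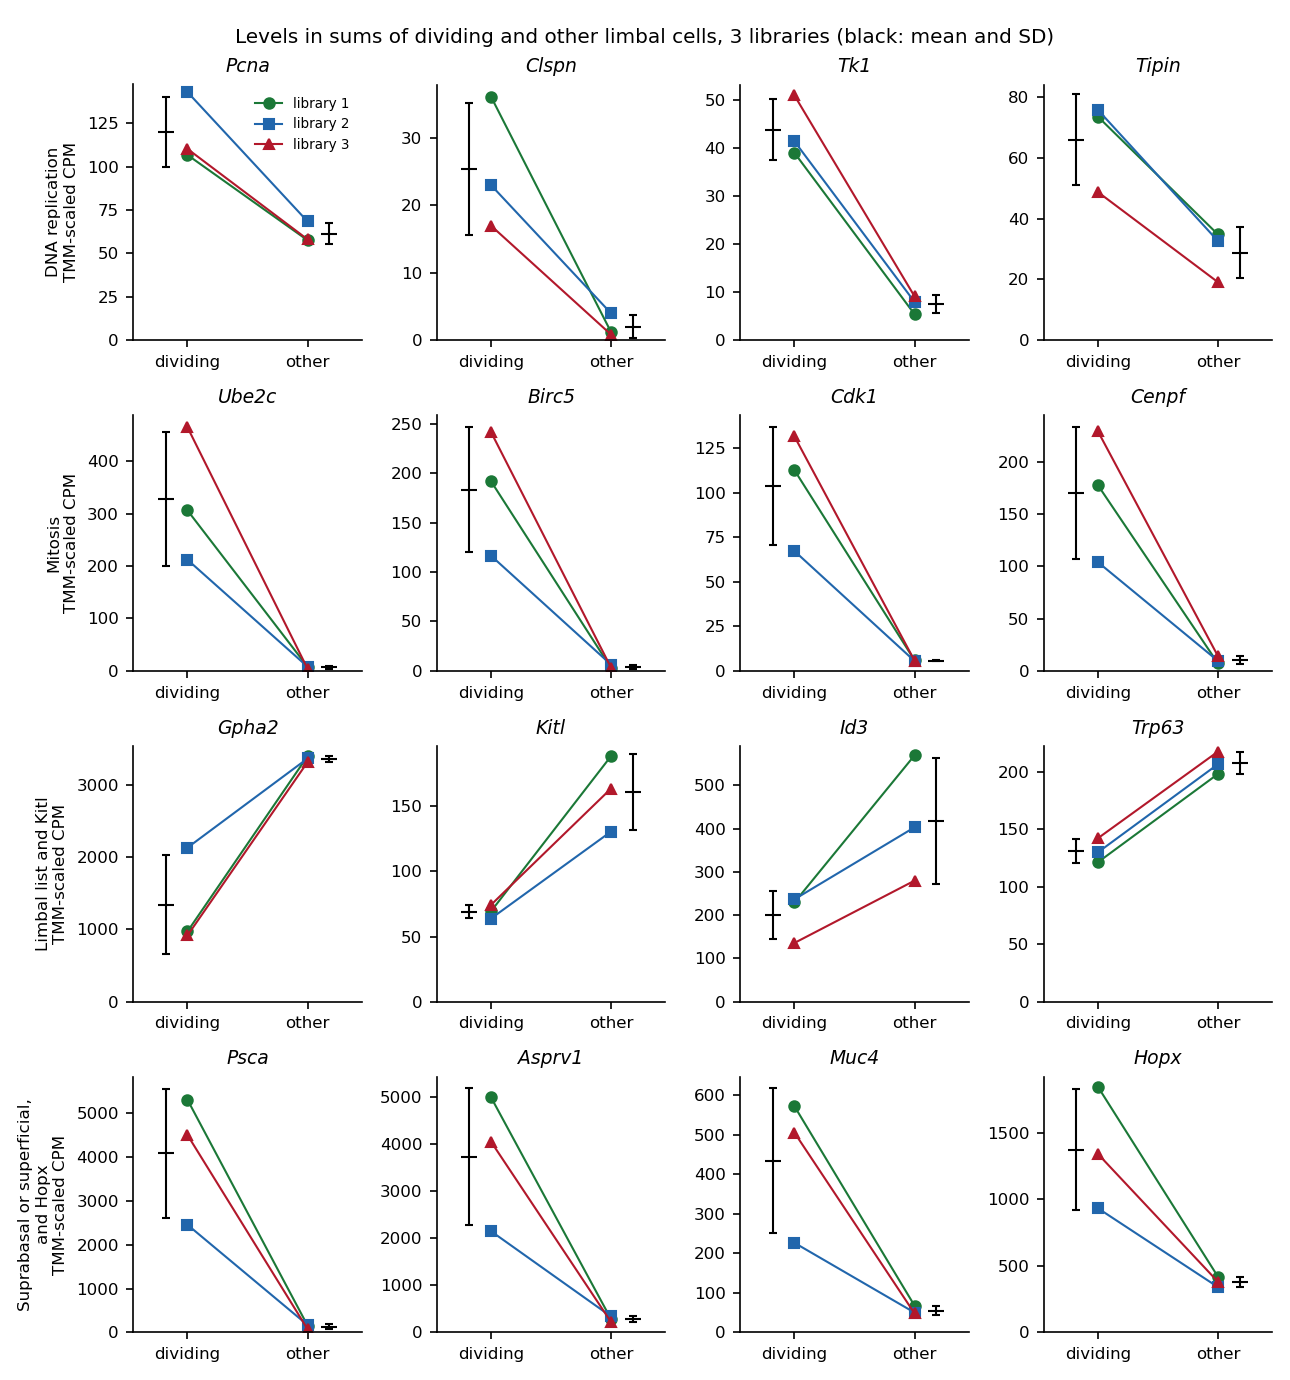
Levels of 16 genes (TMM-scaled CPM, axes from 0) in the summed dividing and other limbal cells of each library, lines joining the sums of a library and black bars giving mean and SD. Pcna, Tk1 and Tipin are higher and Kitl, Id3 and Trp63 lower in the dividing cells of every library.

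Genes of replication licensing and the replication fork rose as a group. Of the 44 genes listed, 34 were tested, 25 rose and 0 fell, with a median log2 fold change of 0.89 against -0.01 over all genes. Only 2 of the 34 lay below the abundance filter of 6.89 CPM in all 3 sums of other cells, and 23 of the remaining 32 rose. Without library 2, which held 92 of the 154 dividing cells, 10 of 31 rose. Pcna, the sliding clamp of DNA polymerases, had 107, 143 and 110.3 CPM in dividing against 57.6, 68.4 and 58.1 CPM in other cells, a log2 fold change of 0.98 ± 0.15 (edgeR adjusted p = 3.42e-07), with no overlap. Clspn, the claspin adaptor of the S phase checkpoint, had 36.1, 23 and 17 CPM against 1.20, 3.98 and 0.83 CPM, a log2 fold change of 3.35 ± 0.40. Clspn lay below the filter in all 3 sums of other cells, so its dividing sums had to lie above them. Without library 2 Clspn was 4.57 and Pclaf 4.94.

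Other members differed in size and in their spread over libraries. Mcm5 had 11.5, 59.7 and 29.7 CPM in dividing against 9.60, 19.9 and 9.13 CPM in other cells (log2 fold change 1.39 ± 0.24), highest in library 2, and its groups overlapped, since the dividing sum of library 1 lay below the other sum of library 2. Without library 2 Mcm5 was 0.99 and was not called. Pola1 had 26.0, 15.5 and 12.7 CPM against 7.80, 9.15 and 5.81 CPM (1.15 ± 0.34), and without library 1 it was 0.85 and not called. Uhrf1, which reads hemimethylated DNA behind the fork, had 28.9, 41.4 and 31.8 CPM against 4.80, 10.7 and 5.81 CPM (2.17 ± 0.27), with no overlap. Rfc1, a subunit of the clamp loader, was at 69.3, 70.7 and 48.8 CPM against 57.0, 58.1 and 48.1 CPM and was not called. Replication genes kept this direction without high doublet scores, where 19 of 30 tested rose and 0 fell (median 1.25), and without cells above 20000 UMIs, where 12 of 32 rose (median 1.29). Without high doublet scores Clspn, Uhrf1 and Chaf1b lay below the filter of that setting in all sums of other cells, and so had to differ.

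Of 18 tested genes of nucleotide synthesis, 7 rose and 1 fell. Among those that rose were the thymidylate and deoxynucleotide genes Tk1, Tyms, Rrm1, Rrm2, Dut and Dctpp1, and Dctpp1 was not called without library 2. Tk1, the thymidine kinase of S phase, had 39.0, 41.4 and 50.9 CPM in dividing against 5.4, 7.96 and 9.13 CPM in other cells (2.51 ± 0.26, edgeR adjusted p = 1.53e-13). Rrm2, the small subunit of ribonucleotide reductase, had 13, 35 and 14.8 CPM against 2.40, 5.17 and 3.32 CPM (2.57 ± 0.36). The groups of Tk1 did not overlap, while Rrm2 lay below the filter in all 3 sums of other cells and so had to differ. Paics, of purine synthesis, fell to 77.9, 105 and 84.8 CPM, against 132, 126 and 115 CPM (-0.46 ± 0.15), but was not called without library 1 (-0.32) or library 3 (-0.47), and was -0.05 without high doublet scores. The count of 7 higher was the same without high doublet scores (of 15) and without cells above 20000 UMIs (of 17). In both settings Rrm2 again lay below the filter in all sums of other cells and had to differ. Without cells above 20000 UMIs so did Tk1, at 4.97, 9.17 and 9.72 CPM in other cells. Among S phase repair genes 5 of 8 tested rose, but 4 of the 8 lay below the filter in all 3 sums of other cells, and 1 of the remaining 4 rose. Tipin, which steadies stalled forks, had 73.6, 75.8 and 48.8 CPM against 34.8, 32.6 and 19.1 CPM (1.19 ± 0.19), with no overlap.

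Nearly all tested genes of mitosis rose. Of 21 mitotic cyclins and kinases 19 were tested and 17 rose, of 24 kinesins, spindle and cytokinesis genes 22 were tested and 22 rose, and of 21 kinetochore and checkpoint genes 20 were tested and 20 rose. Of these 61 tested genes, 43 lay below the filter in all 3 sums of other cells and so entered the test through the dividing cells alone. A gene that entered in this way had to differ. Of the other 18, which other cells also expressed, 16 rose, with a median log2 fold change of 2.62. Across all genes 151 of 8614 lay below the filter in this way. Outside the mitotic lists, Clspn, Rrm2, E2f8, Asf1b, Cdkn3, Krt78, Dusp5, Cdc20 and Fbxo5 did so too.

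Ube2c, the ubiquitin-conjugating enzyme that works with the anaphase-promoting complex, had 306, 212 and 464 CPM in dividing against 7.80, 7.96 and 4.15 CPM in other cells, a log2 fold change of 5.38 ± 0.20 (edgeR adjusted p = 1.76e-26). Birc5, of the chromosomal passenger complex, had 192, 117 and 242 CPM against 3.00, 6.37 and 3.32 CPM (5.15 ± 0.24). Cdk1, the kinase that starts mitosis, had 113, 67.2 and 132 CPM against 6.00, 5.57 and 5.81 CPM (4.03 ± 0.24). In all 3 genes library 3 was the highest and library 2 the lowest of the dividing sums. The groups of Ube2c did not overlap. Birc5 and Cdk1 lay below the filter in all 3 sums of other cells, so their dividing sums had to lie above. Without library 2 Birc5 was 6.01. Kif11, a motor that separates the spindle poles, had 41.9, 8.62 and 63.6 CPM against 0.60, 0.40 and 1.66 CPM (5.22 ± 0.48). Ckap2 had 37.5, 18.4 and 70.0 CPM against 1.2, 0.40 and 0 CPM (5.79 ± 0.47), and was 6.63 without library 1 and 5.04 without library 3. Ect2 had 28.9, 14.4 and 27.6 CPM against 0, 2.39 and 1.66 CPM (3.76 ± 0.49), and was 3.05 without library 1 and 5.10 without library 2. Kif11, Ckap2 and Ect2 too entered the test through the dividing cells alone, so their dividing sums had to lie above the others. Library 2 was the lowest of the dividing sums of these genes. Cenpf, of the outer kinetochore, had 178, 104 and 229 CPM against 7.20, 9.55 and 14.1 CPM (3.95 ± 0.20). Prc1, which bundles the spindle midzone, rose by 3.93 ± 0.23 and Cdca8, a partner of Birc5, by 4.07 ± 0.25 (4.76 without library 2) on the log2 scale. Of 12 genes of the anaphase-promoting complex and its substrates, Ube2c, Cdc20 (5.06), Fbxo5 (2.68, and 3.41 without library 2), Fzr1 (1.39) and Ube2s (1.17) rose, and 0 of 9 did without high doublet scores. Cdc25c, a phosphatase that activates Cdk1, had 10, 16 and 13 UMIs in dividing cells and 0 in the other cells of every library, so no fold is given.

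With high doublet scores left out the dividing cells held 2, 31 and 2 UMIs of Ube2c, against 12, 18 and 4 in other cells, and the gene was too low to be tested. Cdk1, Birc5 and Prc1 were also too low, 0 of 2 kinesin and spindle genes and 3 of 5 mitotic cyclins and kinases rose, and 7 of 8 kinetochore genes did (median 2.44). Cenpf was then 1.41 and Cdca8 2.96 on the log2 scale, both called. Cdca8 (2.18, 8.35 and 4.33 CPM), Cenpk and Cenpm lay below the filter of this setting in all sums of other cells. These genes thus entered the test through the dividing cells alone and had to differ. How many genes entered each restricted setting in this way was not counted. Without cells above 20000 UMIs, 2 of 3 spindle genes, 4 of 8 cyclins and kinases and 9 of 10 kinetochore genes rose. Members of each of these lists again lay below the filter of that setting in all sums of other cells. Among them were Prc1 (4.14, 7.33 and 8.84 CPM), Cdk1 (7.46, 5.96 and 6.18 CPM), Birc5 and Cdca8. They too entered through the dividing cells alone and had to differ, so these counts are a description. Stmn1, which destabilises microtubules, had 644, 501 and 742 CPM in dividing against 52.8, 88.3 and 76.4 CPM in other cells (3.08 ± 0.17), and was 2.72 without high doublet scores and 2.90 without cells above 20000 UMIs, called in both.

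At 2000 UMIs per cell, 3 or more UMIs of the 3 mitotic lists together were found in 49.4% of the 154 dividing cells (76 cells, 95% exact Clopper-Pearson interval 41.2 to 57.5), against 4.54% of the 573 other cells (26 cells, 2.99 to 6.58). For the kinetochore list alone the shares were 27.9% and 0.873%. Thus 26 cells with 0 UMIs of Mki67 and Top2a held 3 or more mitotic UMIs at this depth. These intervals cover counting error only.

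**Figure D3:**
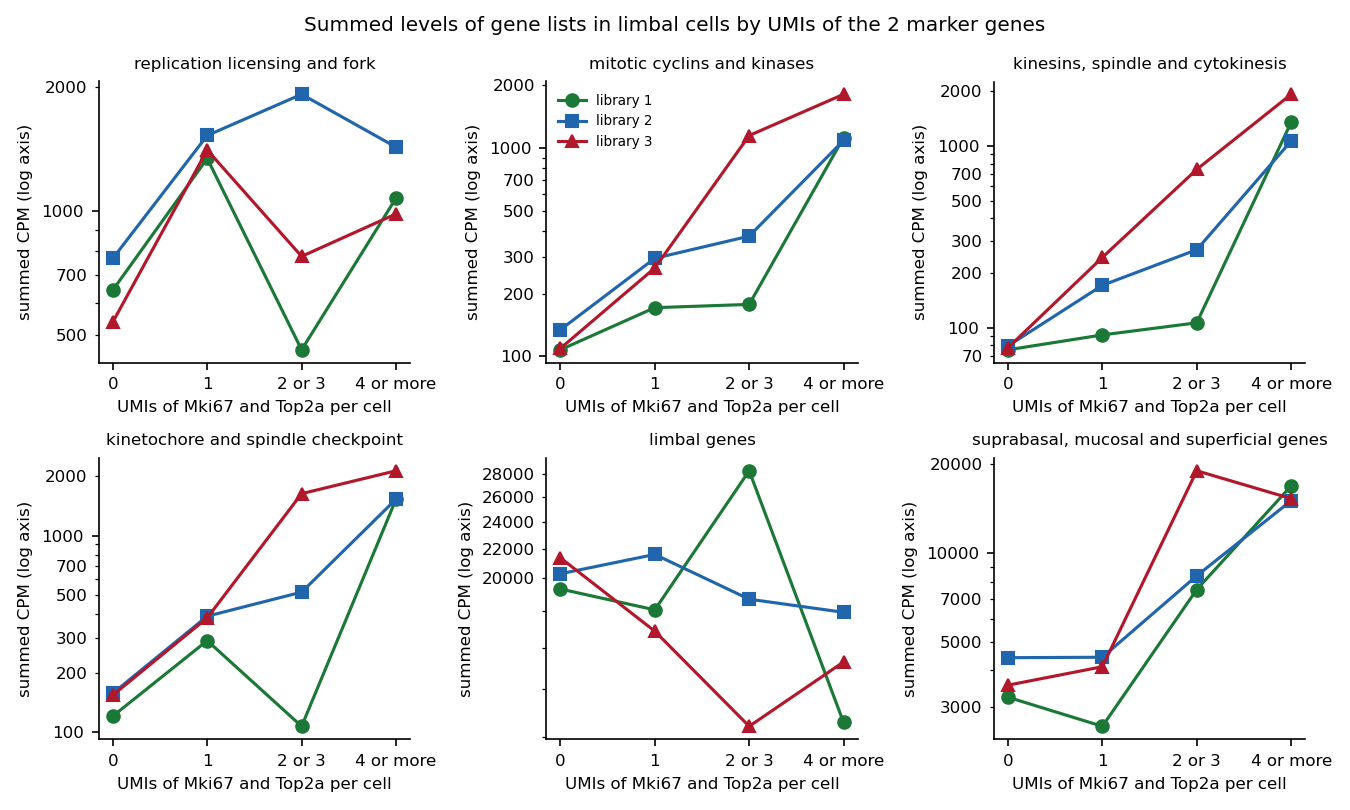
Summed CPM of 6 gene lists (log axes) in limbal cells grouped by their UMIs of Mki67 and Top2a, 1 line per library. Replication genes are already high at 1 UMI, while kinesins and suprabasal genes are highest at 2 or more.

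Replication and mitosis genes followed the number of marker UMIs differently, which is a description because the markers define the groups. The summed level of the replication list at 0, 1, 2 or 3, and 4 or more UMIs of the pair was 644, 1341, 461 and 1075 CPM in library 1, from 137, 12, 3 and 10 cells. In library 2 it was 768, 1525, 1919 and 1429 CPM, and in library 3 539, 1406, 777 and 985 CPM. The level at 1 UMI was thus above that at 0 in all 3 libraries, and no further step was shared by all. The kinesin and spindle list stood at 75.6, 91.3, 106 and 1353 CPM in library 1, 79.4, 171, 269 and 1068 CPM in library 2, and 77.6, 244, 744 and 1930 CPM in library 3. It was highest at 4 or more UMIs in every library. The list of suprabasal, mucosal and superficial genes was higher at 2 or 3 and at 4 or more UMIs than at 0 or 1 in every library, at 3245, 2585, 7524 and 16913 CPM in library 1, 4419, 4434, 8380 and 15067 CPM in library 2, and 3565, 4118, 19033 and 15315 CPM in library 3.

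Chromosome, histone and cytoskeletal genes rose with the cell cycle lists. Of 16 condensin, cohesin and chromosome genes 14 rose (6 of the 16 entered the test through the dividing cells alone), and without high doublet scores 7 of 11 did. Hmgb1, an abundant DNA-bending protein, had 1025, 989 and 1173 CPM in dividing against 643, 690.4 and 728 CPM in other cells (0.62 ± 0.10). Hmgb2 had 906, 586 and 1434 CPM against 249, 222 and 237 CPM (1.94 ± 0.26). Both kept a call without high doublet scores, at 0.60 and 1.03, with no overlap in any library of the full comparison. Of 20 histones and chaperones 12 rose, among them Asf1b, a histone chaperone (3.72 ± 0.47), while the replacement histones H3f3a (0.03) and H3f3b (0.06) did not pass the test. Of 9 tubulins and stathmin 6 rose, among them Tubb5, a beta tubulin, with 537, 457 and 713 CPM against 137, 163 and 145 CPM (1.89 ± 0.12), and without high doublet scores 2 of 8 did. Of 11 genes of the nuclear envelope and Ran system 6 rose, among them Ran, the GTPase of nuclear transport (495, 510 and 488 CPM against 275, 332 and 271 CPM, 0.76 ± 0.11) and Lmnb1, a lamin (133, 95.4 and 155 CPM against 55.8, 54.5 and 55.6 CPM, 1.13 ± 0.16).

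Few genes of G1 entry were called. Of 12 tested cyclins, kinases, pocket proteins and E2F factors, E2f8, which lay below the filter in all 3 sums of other cells, rose (2.68 ± 0.49), 0 of the other 11 did, and Ccnd2, a D-type cyclin, fell (-0.69 ± 0.18). Ccnd2 was not called without library 1 (-0.36) or without high doublet scores (-0.43). Ccnd1, another D-type cyclin, had 537, 627 and 350 CPM in dividing against 617, 620.4 and 376 CPM in other cells (-0.09 ± 0.11), with overlapping groups. Of 20 inhibitors of kinases or proliferation, 7 rose (Cdkn3, Cdkn2d, Cdkn2b, Cdkn2c, Cdkn1a, Ccng2 and the transcription factor Klf4) and 3 fell (Txnip, Sesn1 and Gadd45g). Cdkn3, a phosphatase that acts on Cdk1 (4.22 ± 0.28, and 4.99 without library 2), and Cdkn2d (2.15 ± 0.24) rose, and Txnip, a thioredoxin-binding protein, fell to 322, 348 and 456 CPM, against 654, 499 and 692 CPM (-0.71 ± 0.11). Cdkn1a, the inhibitor p21, had 117, 110 and 97.6 CPM against 72.0, 66.5 and 91.3 CPM (0.55 ± 0.15), with no overlap, and was not called without library 1 (0.49) or library 2 (0.42). Gadd45g (-1.12) was -2.09 without library 2 and was not called without library 1 or library 3, and Sesn1 and Cdkn2c lost their calls without any 1 library. In this list 0 of 15 were called without high doublet scores. Of 14 genes of Myc and ribosome biogenesis 0 were called, 0 had an unadjusted p under 0.05, and DESeq2 called 0.

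Genes that mark limbal cells were mixed. Of 14 tested 5 fell and 3 rose, with a median of -0.73, and without high doublet scores 1 of 14 was called, with a median of -0.13. Gpha2 had 971, 2129.6 and 916 CPM in dividing against 3394, 3363 and 3313 CPM in other cells (TMM-scaled). Every dividing sum was below every other sum, but library 2 stood apart, and the log2 fold change of -1.43 ± 0.38 was not called (edgeR adjusted p = 0.212). It was called lower without library 2 (-1.85) and without library 3 (-1.22). It was also called without high doublet scores (-0.67), without cells above 20000 UMIs (-0.72) and with the dividing cells of a single marker UMI (-0.57). Krt15 and Krt14, basal keratins, were not called.

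Id3 and Id1, inhibitors of helix-loop-helix factors and targets of BMP signals, fell. Id3 had 230, 237 and 136 CPM in dividing against 569, 403 and 280 CPM in other cells (-1.02 ± 0.12). Id1 had 196, 195 and 255 CPM against 436, 382 and 419 CPM (-0.95 ± 0.12). Neither gene's groups overlapped, and without high doublet scores they were -0.14 and -0.19 and not called. Trp63, the master transcription factor of stratified epithelia, had 121, 129.8 and 142 CPM against 198, 207 and 217 CPM (-0.67 ± 0.13), with no overlap, and was -0.54 and not called without high doublet scores. Hopx, a homeodomain protein, rose to 1845, 932 and 1340.4 CPM, against 418, 340.2 and 380.2 CPM (1.80 ± 0.11), and was -0.15 and not called without high doublet scores. Cd63 (-0.83 ± 0.16) and Igfbp2 (-0.80 ± 0.14) also fell, and Ly6a (0.37 ± 0.12) and Mt1 (0.33 ± 0.10) rose, both not called without library 1 or without library 3, and Ly6a not without library 2.

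Kitl, which codes for stem cell factor, the ligand of the receptor Kit, was among the 15 largest declines. It had 69.3, 63.8 and 74.2 CPM in dividing against 188, 130.5 and 164 CPM in other limbal cells (-1.19 ± 0.15, edgeR adjusted p = 3.02e-10). The dividing sums lay within 63.8 to 74.2 CPM, and every other sum was above them. The call held with other cells matched in depth (-0.86), without high doublet scores (-0.90) and without mucosal keratins (-0.83), and without cells above 20000 UMIs it was -0.59 and not called. Nor was it called with every cell thinned to 2000 UMIs (-0.43) or with the dividing cells of a single marker UMI (-0.57). Other genes among the 15 largest declines were Dlk2, a non-canonical Notch ligand (-1.43 ± 0.21), Rgcc (-1.33 ± 0.25), Cyp2f2, a cytochrome P450 (-1.30 ± 0.14), Rdh10, a retinol dehydrogenase (-1.24 ± 0.21), the membrane proteins Tmem176a (-1.21 ± 0.12) and Tmem176b (-1.15 ± 0.12), Tfap2b, a transcription factor (-1.19 ± 0.24, and -1.90 without library 2), and Csrp2, a LIM-domain protein (-1.10 ± 0.14). Of these, Tmem176a kept its call without high doublet scores (-0.47).

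Genes of the upper corneal and mucosal layers were higher in dividing limbal cells, along with the doublet score and mucosal keratins given above. Of 18 tested, 10 rose and 1 fell, with a median of 0.78. The gene that fell was Krt18 (-0.98), a simple-epithelium keratin, which was -1.98 without library 2 and not called without library 1 (-0.33). Muc4, a membrane mucin of the ocular surface, had 572, 226 and 505 CPM in dividing against 67.8, 50.1 and 48.1 CPM in other cells (2.83 ± 0.19). Krt78, a keratin of upper layers, had 60.6, 23 and 25.5 CPM against 4.80, 1.99 and 4.15 CPM (3.35 ± 0.33). Cysrt1 (4.00 ± 0.16) and Ly6g6c (3.12 ± 0.16) rose as well, each with no overlap. Psca, a surface antigen, had 5301, 2453 and 4498 CPM against 157, 169 and 74.7 CPM, but its log2 fold change of 4.87 ± 0.62 was not called (edgeR adjusted p = 0.0708). Without high doublet scores, 0 of 17 in the list rose and 1, Krt19, fell, the median was 0.03, Muc4 was 0.35, Cysrt1 -0.25 and Ly6g6c 0.03, none of these 3 called, and Psca had 55.6, 117 and 97.7 CPM in dividing against 118, 104 and 76.8 CPM in other cells (CPM of each sum's own total). Without cells above 20000 UMIs 0 of 16 rose. Of 14 corneal basal and differentiation genes 2 rose, Odc1 and the protease Tmprss11d (0.89), which was not called without library 1 (0.45), 10 did without library 2, and 4 fell without high doublet scores. Krt12, the corneal keratin, was 0.72 and not called with all cells and fell by 0.65 on the log2 scale without high doublet scores, where Aldh3a1, a corneal crystallin, fell by 0.46.

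Lists of signalling and metabolism held called genes in both directions. Of 8 EGF receptor and ligand genes the ligands Hbegf and Ereg (1.42) rose and the receptor Egfr (-0.61) fell, but Ereg was not called without library 1 (1.13), nor Egfr without library 2 (-0.46) or library 3 (-0.52). Hbegf had 107, 88.5 and 50.9 CPM in dividing against 22.8, 29.8 and 33.2 CPM in other cells (1.57 ± 0.20), with no overlap. Of 17 interferon and antigen presentation genes 8 rose, among them Ifitm1 (0.56) and the transcription factor Irf1 (1.5), and Ifitm2 (-0.62) and B2m (-0.61) fell, B2m not called without library 3 (-0.48). Of 15 genes of cholesterol and fatty acid synthesis 8 rose and 0 fell, among them the sterol enzymes Fdft1 (1.35) and Fdps (0.87). In these 3 lists 0 of 6, 0 of 15 and 0 of 14 were called without high doublet scores. Without mucosal keratins 7 of 14 cholesterol and fatty acid genes rose. Of 16 BMP and TGF-beta genes Id2 rose (0.52) and Id1, Id3 and the ligand Tgfb2 (-1.29) fell, while Id2 and Tgfb2 were not called without library 1 (0.47 and -1.02), nor Tgfb2 without library 2 (-1.57). Of 11 Wnt genes Wnt10a, Sfrp1 (-0.45), Lgr4 (-0.60) and Tcf7l2 (-0.59) fell, and of 9 Notch genes the ligands Jag1 (-0.66) and Jag2 (-0.54) fell. Wnt10a, a Wnt ligand, had 72.2, 95.4 and 38.2 CPM against 101, 155 and 90.5 CPM (-0.73 ± 0.16), with overlapping groups. Without library 1 the Wnt and Notch counts were 1 and 0, and without library 3 also 1 and 0. Of 13 hemidesmosome and basement membrane genes Dst (-0.61 ± 0.11), Itgb1 (-0.50) and Lama3 (-0.63) fell, and Dst alone did without library 1 or without library 3. Of 11 immediate early genes Ier3 (0.92), Dusp5 (3.17) and Jund (0.34) rose. Dusp5 was 2.07 without library 1 and 7.68 without library 2, Jund was not called without library 1 or library 3, and 0 of the list rose without the library block. Of 8 polyamine genes Odc1 rose (0.60 ± 0.15), and it was not called without library 1. Of 14 glycolysis genes 0 were called, with 2 at an unadjusted p under 0.05 and 0 called by DESeq2.

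Ribosomal protein genes fell together by a small amount. Of 77 tested, 62 fell and 0 rose, with a median of -0.36. Rpl7 had 2296, 2379.5 and 2494 CPM in dividing against 3403, 3262 and 3691 CPM in other cells (-0.53 ± 0.09), with no overlap. Without library 1 the count was 12 and without library 3 it was 34, without high doublet scores 12, with every cell thinned to 2000 UMIs 55, and without cells above 20000 UMIs 0 (median -0.19). Of 13 mitochondrially encoded genes 9 fell (median -0.39), 1 without library 1, 5 without library 3, and 0 without high doublet scores. Ribosomal protein genes, Hmgb1, Ran and the replacement histones have near-identical pseudogene copies, and no source used here says how reads shared with them were counted.

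**Figure D4:**
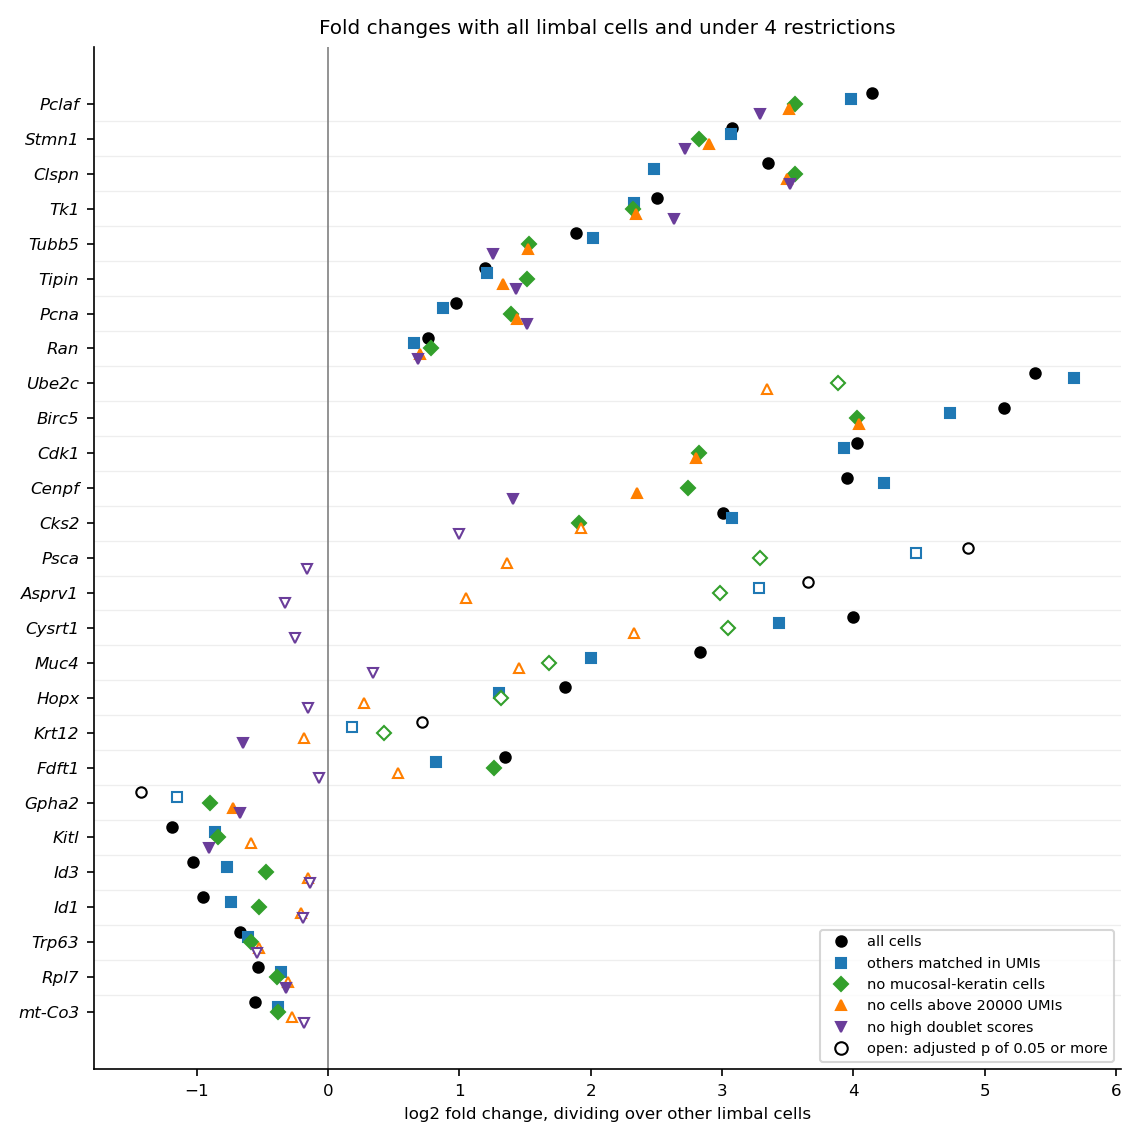
Log2 fold change, dividing over other limbal cells, of named genes with all cells and under the settings that leave out cells. Filled symbols have an adjusted p under 0.05 and open symbols do not. Replication genes stay to the right of 0, and Psca, Muc4 and Hopx move to about 0 without high doublet scores.

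RNA of cell types outside the epithelium was low in both states. Of 10 immune markers 9 were in the table and summed to 0 to 5.80 CPM in dividing and 0 to 6.46 CPM in other limbal cells, with Ptprc, Tyrobp, Lyz2 and Laptm5 at 0 UMIs. The 3 melanocyte markers in the table summed to 0.58 to 2.06 and 0 to 3.6 CPM (Mlana at 0), the 2 of stroma and endothelium to 5.22 to 8.53 and 9.70 to 14.4 CPM (Pecam1 at 0), and the 3 of Schwann cells to 0.58 to 4.26 and 1.62 to 4.80 CPM (S100b at 0).

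The same split was made in TAC1 cells (1328 dividing, 2778 other) and in basal corneal cells (464 dividing, 8132 other). Of the 464 basal cells called dividing, 72 held 2 or more UMIs of the pair, against 84 of 154 limbal and 662 of 1328 TAC1 cells. How many of these basal cells divide was not tested. In TAC1 cells 44 of 44 replication genes rose (10.1% of all genes did, 5.17% fell and 15.2% were called), with a median of 0.72, and 22 of 24 kinesin and spindle genes did, with a median of 1.84. In basal cells 0 of 38 replication genes and 0 of 13 kinesin and spindle genes were called, against 3.63% of all genes called (1.04% higher, 2.59% lower), and 8 of 14 kinetochore genes rose. Pcna had 50.3, 53.6 and 39.2 CPM in dividing against 52.7, 49.7 and 47.6 CPM in other basal cells. In TAC1 cells it had 286, 288 and 354 CPM against 146, 151 and 180.4 CPM (each CPM of the sum's own total). In dividing TAC2 cells Pcna stood at 207, 198 and 138 CPM and Ube2c at 539, 729 and 781 CPM. Ube2c in dividing limbal cells was at 301, 214 and 452 CPM on that scale, and in dividing TAC1 cells at 11.3, 19.4 and 22.4 CPM.

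Whether the contrast itself differed between classes was tested by an interaction term. Against TAC1 cells 816 of 10382 genes (7.86%) differed, with a larger log2 fold change in limbal cells for 522 (5.03%) and a smaller one for 294 (2.83%). Of 44 replication genes 4 were larger and 0 smaller, and of 24 kinesin and spindle genes 17 were larger. Pcna differed by 0.03 (not called). Against basal cells 851 of 9470 (8.99%) differed, 599 larger (6.33%) and 252 smaller (2.66%), among them 19 of 35 replication genes, all larger, with Pcna at 1.13. Without high doublet scores in either class, 46 of 10061 genes (0.457%) differed from TAC1 cells (26 larger, 0.258%, and 20 smaller, 0.199%), with 4 of 44 replication and 0 of 19 kinesin and spindle genes, and 160 of 8933 (1.79%) from basal cells (124 larger, 1.39%, and 36 smaller, 0.403%), with 17 of 35 replication genes. Without library 1 the counts with all cells were 283 and 350, and without library 3 they were 480 and 396.

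Kitl differed from both classes. Its log2 fold change in limbal cells was lower by 1.28 than in TAC1 cells (interaction -1.28 ± 0.15) and by 1.17 than in basal cells (interaction -1.17 ± 0.19), and both kept their call without high doublet scores (-1.04 and -0.90). With every cell thinned to 2000 UMIs the interactions were -0.45 and -0.38, and neither was called (edgeR adjusted p = 0.744 and 0.823). Kitl stood at 33.1, 31.8 and 25.0 CPM in dividing against 29.6, 29.6 and 26.2 CPM in other TAC1 cells, and at 25.1, 31.7 and 25.2 CPM against 25.9, 28.8 and 22.8 CPM in basal cells. So dividing limbal cells, at 68.2, 64.3 and 72.3 CPM on this scale, remained above every sum of both other classes. Gpha2 was lower in dividing cells of TAC1 (-0.45) and basal cells (-0.42) too, both called, and its interactions (-0.93 and -0.96) were not called.

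**Figure D5:**
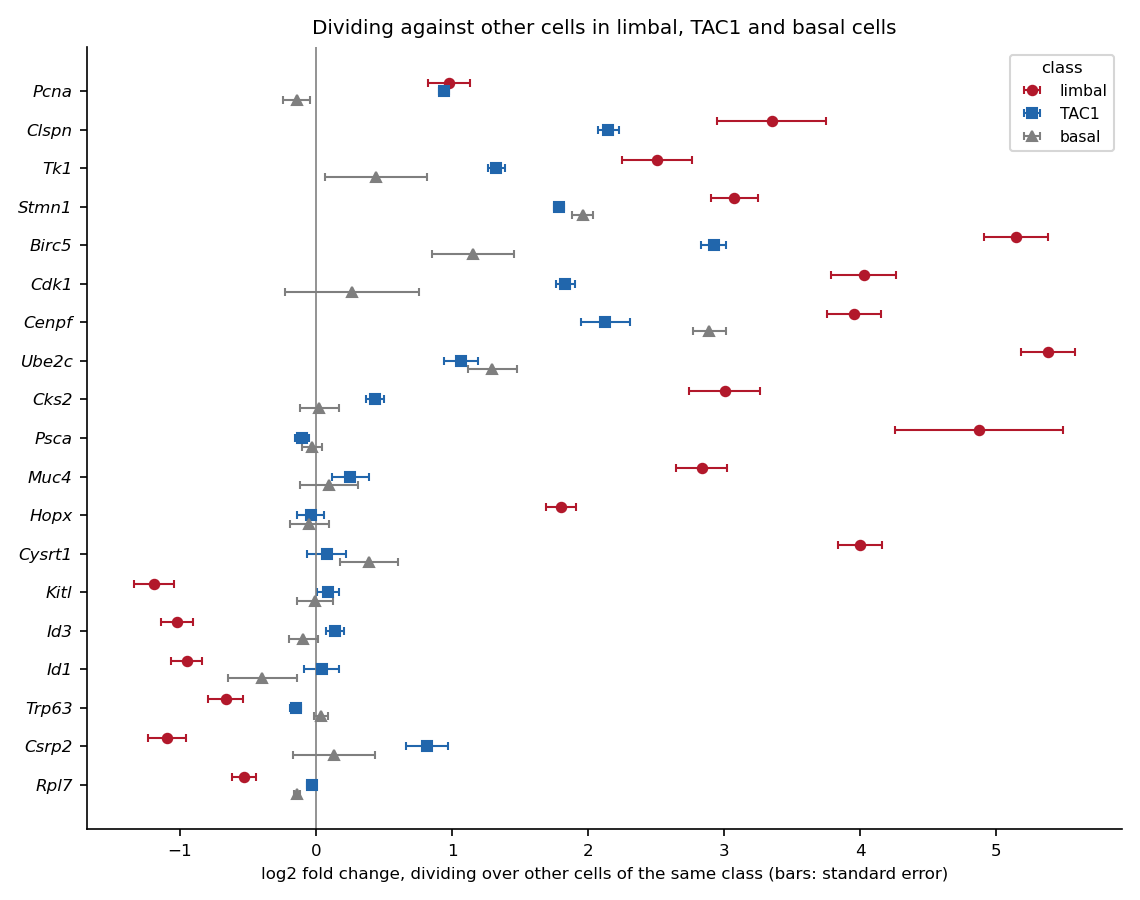
Log2 fold change, dividing over other cells, with standard errors, for named genes in limbal, TAC1 and basal corneal cells. Pcna is at 0.98 in limbal and 0.94 in TAC1 cells, while Kitl is at -1.19 in limbal cells and near 0 in both other classes.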

How the data were processed

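Single-cell 3' RNA-seq of mouse corneal epithelium was analysed from the deposited table of raw UMI counts of 38111 cells and 17931 genes with the authors' cell labels. Cell Ranger 5.0.0 and Seurat 4 with the mm10 build are named in the submitters' processing notes, and no source used here gives the filters or the annotation used for counting. The authors' unit is a count of UMIs, deposited without normalization. Of the cell labels, LSC, TAC1, TAC2, Basal and Wing are used as the authors gave them. Library 1 was matched to its cells by elimination, since the other libraries were named. Libraries held 9488, 11273 and 17350 cells and 187340736, 177449217 and 190393121 UMIs, and 3 of the 727 limbal cells shared a barcode with a cell of another library.

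UMIs were summed per library and state, without Mki67 and Top2a. The sums held 703450, 1725224 and 484386 UMIs for dividing and 1666419, 2543297 and 1237535 UMIs for other limbal cells. Genes were kept by filterByExpr (10 counts at the median sum, or 6.89 CPM, in at least 3 sums), scaled by TMM and tested with edgeR 4.0.16 (R 4.3.3, robust quasi-likelihood F test) with the library as a block, because both states of a library come from the same animals. P-values were adjusted by Benjamini-Hochberg over all genes, with a threshold of 0.05. With the library as a block, they rest on how the difference between the states varied over 3 pools of mice. CPM in sentences with a fold change are TMM-scaled. DESeq2 1.42.0 was an alternative. Doublet scores came from simulated doublets per library, with 0.8% of cells per 1000 cells marked high, and were computed in Python 3.11.15 with scikit-learn 1.9.0. No source used here says whether doublets were removed before deposit. On simulated counts the limbal test recovered 65 of 100 genes changed 2-fold and 94 of 100 changed 4-fold. Beside these calls, 18 of 8414 unchanged genes were called falsely. The counts were drawn around fitted values of genes past the filter, without doublets or a choice of cells by the rule. The simulation therefore does not bear on those.

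The members, the lists and the thresholds were chosen with earlier results of these data known. Named genes were the 15 largest called changes in each direction with a mean log2 CPM of at least 5, up to 4 genes of each of 33 lists, all members of the limbal, inhibitor and G1 lists, and the 5 largest interactions in each direction. Promoter genes, genes held under all settings and single list members named beside a count of 5 or fewer were chosen after their values were seen. The settings for a single marker UMI, for cells above 20000 UMIs and for doublets with mucosal keratins together were added after seeing the data.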

Additional observations from a re-analysis of the deposited data

Results flagged for a closer look

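Of the named genes, 20 interaction terms passed the test (edgeR quasi-likelihood, Benjamini-Hochberg), so that the log2 fold change between dividing and other cells in limbal cells differed from that in another class. Each value is the limbal fold change minus that of the other class, from all cells.

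Against TAC1 cells the upper-layer genes Psca, Nccrp1, Asprv1 and Muc4 differed by 4.91, 4.14, 3.67 and 2.54, and without high doublet scores by 0.0008, -0.50, -0.21 and 0.03. Against basal cells Psca, Nccrp1, Asprv1 and Cysrt1 differed by 4.84, 4.66, 3.67 and 3.61, and without high doublet scores by -0.05, -0.0073, -0.24 and -0.70. None of these was called without high doublet scores, and Psca, Nccrp1 and Asprv1 lost their calls without library 1 or without library 3. The mitotic genes Cks2 (2.56 against TAC1) and Ube2c (4.09 against basal cells) were 0.54 and 0.51 without high doublet scores and not called.

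Kitl differed by -1.28 from TAC1 and -1.17 from basal cells, and was called without high doublet scores (-1.04 and -0.90), but not with every cell thinned to 2000 UMIs (-0.45 and -0.38). Csrp2 differed by -1.88 and -1.20. Without high doublet scores Csrp2 was called against TAC1 (-1.11) and not against basal cells (-0.31), where it also lost its call without library 1 (-0.91) or library 3 (-1.19). Id3 (-1.13), Id1 (-1.02) and Zcchc7 (-0.85) differed from TAC1 cells, and were -0.34, -0.49 and -0.37 and not called without high doublet scores. Id1 was -0.75 and not called without library 2. Fndc1 (-1.14), Hist1h1c (-1.13) and Ogt (-1.09) differed from basal cells. Without high doublet scores Ogt was called (-0.90), and Fndc1 (-0.56) and Hist1h1c (-0.68) were not. Fndc1 was -0.65 and not called without library 1. With every cell thinned to 2000 UMIs, Id3 (-0.45), Id1 (-0.90) and Zcchc7 (-0.78) against TAC1, Csrp2 (-0.51) and Fndc1 (-0.91) against basal cells, and Psca and Asprv1 against both were also not called.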

How the results depend on the processing

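Dividing sums were smallest with every cell thinned (49987, 183967 and 73971 UMIs) and with the states set after thinning (19987, 47967 and 39971). The 1157 genes called in limbal cells became 441 by DESeq2, 519 without the replicate block, 179 with every cell thinned to 2000 UMIs, 80 with the states set after thinning, 151 without high doublet scores, 364 with other cells matched in UMIs, 228 without mucosal keratins, 173 without high doublet scores and mucosal keratins, 86 without cells above 20000 UMIs, 47 with dividing cells of 1 marker UMI, and 634 to 1075 on leaving out a library. Counts stayed within 1.5 times with RLE scaling (1165), no scaling factor (1116), no filter (1197), 2 or more marker UMIs (1203) and a minimum of 5000 UMIs (946). The pairing is by construction, since both states share a library. The 816 genes that differed from TAC1 became 137 without the block, 132 thinned, 46 without high doublet scores and 283 to 872 on leaving out a library. The 851 against basal cells became 474 by DESeq2, 181 without the block, 108 thinned, 160 without high doublet scores and 350 to 986. The share of dividing cells of 19.6% was 7.41% thinned, 10.7% with 2 or more UMIs, 13.2% without high doublet scores and 16.2% to 21.7% on leaving out a library. Fold changes that turned sign without high doublet scores were Klf4 -0.25, Igfbp2 0.18, Hopx -0.15, Krt12 -0.65, Aldh3a1 -0.46, Krt6a -0.24, Krt19 -0.85, Ifitm1 -0.39, Irf1 -0.044, Fdft1 -0.0687, Fdps -0.0688, Tmprss11d -1.43, Fzr1 -0.032 and Cysrt1 -0.25. Without mucosal keratins too they were Klf4 -0.33, Igfbp2 0.14, Hopx -0.38, Krt12 -0.64, Aldh3a1 -0.55, Krt6a -0.23, Muc4 -1.23, Krt19 -0.57, Ifitm1 -0.46, Rgcc 0.50, Tmprss11d -1.82, Cdkn2c -0.45 and Cyp2f2 0.055. With 1 marker UMI they were Igfbp2 0.16, Krt6a -0.43, Krt19 -0.49, Ifitm1 -0.29, Irf1 -0.089, Ly6g6c -0.28 and Csrp2 0.0036. With states set after thinning they were Paics 0.15, Krt19 -0.053 and Lgr4 0.39, and with every cell thinned Lgr4 0.018. Krt19 and Ifitm1 were -1.53 and -0.32 without mucosal keratins, and -1.06 and -0.19 without cells above 20000 UMIs, where Tmprss11d was -0.22. Interactions that turned sign without high doublet scores were Nccrp1 -0.50 and Asprv1 -0.21 against TAC1, and Psca -0.047, Nccrp1 -0.0073, Asprv1 -0.24 and Cysrt1 -0.70 against basal cells. The cause was not tested.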
